A study of Mus musculus with 47 samples.

Results

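The shared core of the SWI/SNF chromatin remodeller is encoded here by 10 genes, taken by name out of 21887 mouse protein-coding genes. They are Smarca4, Smarca2, Smarcb1, Smarcc1, Smarcc2, Smarcd1, Smarcd2, Smarcd3, Smarce1 and Actl6a. All 10 were found in the RefSeq table, and every ChIP-seq peak that touched a gene's mm10 span or the 10 kb to either side of it (its window) was counted. The windows held 729 of the 806216 peaks in 32 peak lists. In mm10 the ATPase genes span 21616106 to 21704230 of chromosome 9 (Smarca4) and 26605073 to 26778321 of chromosome 19 (Smarca2). Smarcb1 spans 75896769 to 75921614 and Smarcc2 128459182 to 128490591 of chromosome 10, and Smarcc1 110132024 to 110240178 of chromosome 9. The SMARCD genes span 99702287 to 99713995 of chromosome 15 (Smarcd1), 106263171 to 106272998 of chromosome 11 (Smarcd2) and 24592622 to 24624456 of chromosome 5 (Smarcd3). Smarce1 spans 99209047 to 99231017 of chromosome 11 and Actl6a 32708546 to 32726973 of chromosome 3. Smarca4 and Smarca2 had no other protein-coding gene in their windows, whereas each of the other 8 windows reached into at least 1 neighbouring gene.

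The cells were NMuMG, a mouse mammary epithelial line, given 5 ng/ml TGFβ1 for 24 or 48 h or no TGFβ1 (0 h), in a Pbrm1 KO and a control genotype. PHF10 was profiled in KO cells at 0 and 48 h (1 library each) and in control cells at 0 h (2 libraries), 24 h (1) and 48 h (2). ATF3 was profiled in KO and control cells at 0, 24 and 48 h, and FOSL2 and FOSB in KO and control cells at 0 and 48 h, with 1 library each. BRG1 was profiled in untreated control cells, and 5 histone marks (H3K4me3, H3K4me1, H3K27ac, H3K14ac, H3K18ac) in control cells with 48 h of TGFβ1 and without, again with 1 library each. All groups share the parental line. Whether the KO cells were a clone or a pool is not given in the sources used here, and the loss of Pbrm1 itself cannot be read from peak lists.

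SWI/SNF complexes slide and evict nucleosomes with the energy of ATP. In its BAF and PBAF forms, a complex holds 1 of the ATPases BRG1 (from Smarca4) and BRM (from Smarca2). The ATPase is joined to a core of SMARCB1, the SMARCC scaffold proteins, a SMARCD protein and SMARCE1, and to the actin-related protein ACTL6A. This core is shared between the BAF form and the PBAF form, and PBAF adds PBRM1, ARID2, BRD7 and PHF10. The genes below therefore encode the protein pulled down with the BRG1 antibody and partners of the PHF10 protein, so that the data show where a remodeller and AP-1 family factors lay on the remodeller's own genes.

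Sequence just upstream of 4 of these genes is shown as a view of their start sites. The stretches are from RefSeq (GRCm38.p6, the assembly that mm10 names) and stop before the annotated gene span. Smarca4 (chr9:21615919-21616105, plus strand) had a PHF10 peak at its start in every PHF10 library. Smarca2 (chr19:26604910-26605072, plus strand) was the gene with most ATF3 peaks at 24 h among the 10, none of them over this stretch. Smarcb1 (chr10:75921615-75921864, minus strand) holds the AP-1 motif in capitals, and Actl6a (chr3:32708296-32708545, plus strand) had PHF10 but no BRG1 peak at its start.
Smarca4: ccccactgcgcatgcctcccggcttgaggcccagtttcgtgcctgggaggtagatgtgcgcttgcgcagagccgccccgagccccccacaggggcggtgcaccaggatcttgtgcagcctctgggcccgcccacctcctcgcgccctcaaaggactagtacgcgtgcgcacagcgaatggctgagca
Smarca2: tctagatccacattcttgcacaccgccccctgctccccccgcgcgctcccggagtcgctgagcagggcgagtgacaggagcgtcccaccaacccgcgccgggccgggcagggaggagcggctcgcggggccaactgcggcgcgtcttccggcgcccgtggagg
Smarcb1: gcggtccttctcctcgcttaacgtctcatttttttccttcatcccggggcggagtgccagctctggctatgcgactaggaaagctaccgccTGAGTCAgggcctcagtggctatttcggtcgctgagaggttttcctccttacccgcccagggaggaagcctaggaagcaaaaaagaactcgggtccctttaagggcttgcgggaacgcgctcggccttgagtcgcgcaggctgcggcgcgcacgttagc
Actl6a: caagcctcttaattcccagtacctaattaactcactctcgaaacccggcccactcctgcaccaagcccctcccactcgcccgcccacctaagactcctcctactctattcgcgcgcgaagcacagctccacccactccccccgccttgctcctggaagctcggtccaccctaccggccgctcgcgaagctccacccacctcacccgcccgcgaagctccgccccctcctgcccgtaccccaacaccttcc
An upstream stretch was found for 9 of the 10 genes. The AP-1 motif TGANTCA, searched on both strands in the 250 bases upstream of the start, was present in 1 of these 9 (Smarcb1) and in 6.22% of all 17492 stretches of that length. The longer motif TGACGTCA, also on both strands, whose letters cannot overlap a TGANTCA match, was present in 0 of 9 and in 2.01% of all stretches. The 9 stretches were rich in G and C, with a median of 68.4% (56.4% to 80.8%) against a median of 55.2% over all stretches. They held a median of 25 CG dinucleotides (4 at Smarcd2 to 40 at Smarcc2), against 10 over all stretches.

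The peak lists differed in length far more than the windows differed from each other. Lists ran from 2 peaks (FOSB, KO, 0 h) to 158815 peaks (PHF10, KO, 48 h), and read depth is unknown, so a longer list and denser binding cannot be told apart. Counts are therefore read against the share of all protein-coding genes that meet the same rule in the same lists. At 0 h, H3K4me3 and H3K27ac peaks lay in or within 2 kb of 5 of 5 epithelial marker genes (Cdh1, Epcam, Krt8, Krt18 and Cldn4) and of neither the leukocyte marker Ptprc nor the adipocyte marker Adipoq. Of 8 markers of other cell types, 6 had H3K4me3 and 5 had H3K27ac, so these marks did not set the cell types apart. Positions are as deposited and may be off by 1 base, and fold enrichment is a value the authors deposited with each peak, used here to rank peaks of 1 list.

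**Figure D1:**
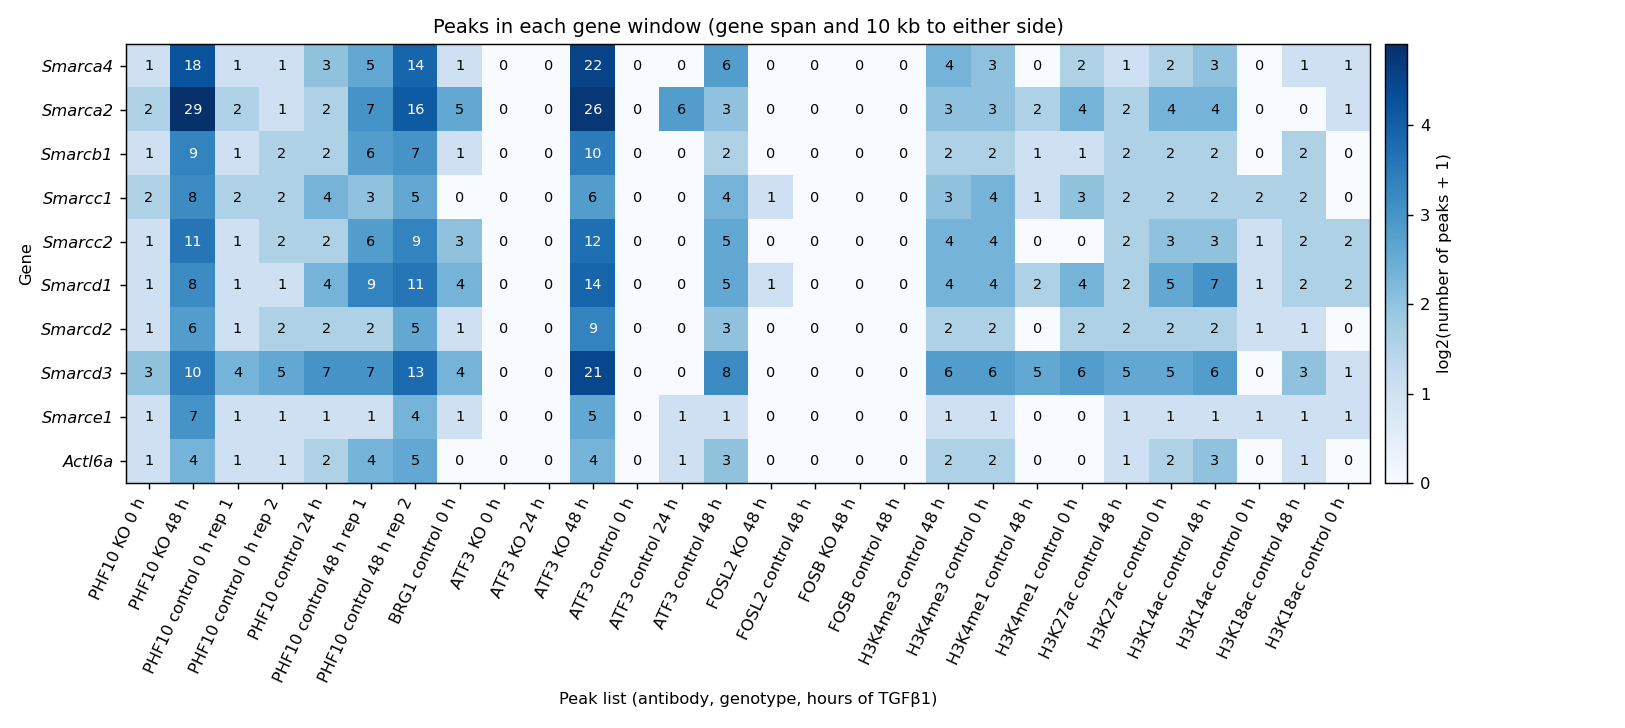
Number of peaks in the window of each gene (rows) in 28 of the 32 peak lists (columns); the 4 FOSL2 and FOSB lists at 0 h, with no peak in any window, are left out. Shade is log2(number of peaks + 1) and the printed number is the count: the PHF10 and ATF3 lists at 48 h are darkest, from 1 to 29 peaks per gene, and the FOSB columns are 0 throughout.

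The start sites of all 10 genes carried promoter marks in treated and untreated control cells. H3K4me3 is a mark of promoters at large and H3K27ac of active ones. Over the whole windows, H3K4me3 was found at 10 of 10 genes at 48 h and 10 of 10 at 0 h (73.2% and 73.5% of all genes), and H3K27ac at 10 of 10 at 48 h and 10 of 10 at 0 h (59.2% and 66.6%). A peak within 1 kb of the annotated start, or of the 5′ end of the gene span, was found for 10 of 10 genes with H3K4me3 at 48 h and 10 of 10 at 0 h, where 61.5% and 61.4% of 17492 genes with a start had such a peak. For H3K27ac the counts were 10 of 10 at 48 h and 10 of 10 at 0 h, against 48.1% and 56.7% of those genes. Ranked within their own lists by fold enrichment, the strongest start peaks had a median percentile of 84.7 for H3K27ac at 48 h and 87.7 at 0 h. Smarcd1 had the H3K27ac start peak of highest rank at 48 h, with rank 73 of 15962 peaks and a fold enrichment of 241. Smarce1, which encodes the HMG-box subunit, had the highest at 0 h, with rank 446 of 20507 and a fold enrichment of 182.

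Smarca2, the gene of the ATPase BRM, had the lowest-ranked H3K27ac start peak of the 10 at both times. Its strongest start peak had a fold enrichment of 3.29 (percentile 6.1 of the list) at 48 h and 11.5 (percentile 51.1) at 0 h. At Smarca4, the gene of BRG1, the same mark had a fold enrichment of 74.2 (percentile 75.5) at 48 h and 105 (percentile 86.9) at 0 h. The percentiles place each peak within 1 list, and with 1 library per time a difference between times has no replicate check.

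Acetylation of H3K14 and H3K18 was called at more of the start sites at 48 h. For H3K14ac, a start peak was found at 10 of 10 genes at 48 h and at 5 of 10 at 0 h, against 61.4% and 13.3% of genes with a start, in lists of 35270 and 3453 peaks. For H3K18ac, it was found at 9 of 10 genes at 48 h and at 4 of 10 at 0 h, against 31.1% and 10.3%, in lists of 20415 and 13226 peaks. The H3K14ac start peaks at 48 h stood high in their list, with a median percentile of 96.1 (61.2 at Smarca2 to 99.5 at Smarcd1). The list includes peaks away from starts, and start peaks of other genes were not ranked for any mark. Smarca2 was the gene without an H3K18ac start peak at 48 h. H3K4me1 was called within 1 kb of 3 starts at 48 h (Smarca2, Smarcd1 and Smarcd3; 26.3% of genes with a start) and of 3 at 0 h (Smarca2, Smarcd2 and Smarcd3; 25.4%).

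PHF10, the PBAF subunit, was found at nearly all of these starts before TGFβ1. In control cells at 0 h it had a start peak at 9 of 10 genes in replicate 1 and 10 of 10 in replicate 2, against 35.6% and 46.7% of genes with a start. The gap in replicate 1 was Smarcb1, which encodes the SNF5 homologue. The count was 10 of 10 in control cells at 24 h (57.5% of genes with a start), in both control libraries at 48 h (59.3% and 68.9%), and in KO cells at 48 h (73.4%) and 0 h (40.6%). Over the whole windows PHF10 was present at 10 of 10 genes in each of the 7 lists. The share of all genes with PHF10 was 87.9% in KO cells at 48 h and 52.4% at 0 h, and in control cells 48.2% and 59.1% at 0 h, 71.3% at 24 h and 75.0% and 83.8% at 48 h. Smarcd1 had the strongest start peak of the 10 in replicate 1 at 0 h, with a fold enrichment of 18.2 (chromosome 15, 99702121 to 99702604) and rank 529 of 11285.

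BRG1 was called at fewer of the starts than PHF10 in untreated control cells, although its list, with 29215 peaks, was longer than both PHF10 lists. It had a start peak at 6 of 10 genes (32.5% of genes with a start), namely Smarca4, Smarca2, Smarcc2, Smarcd1, Smarcd2 and Smarcd3. Smarcb1, Smarcc1, Smarce1 and Actl6a had none within 1 kb. Over the whole windows, BRG1 was present at 8 of 10 genes, where 56.7% of all genes had a peak, and was not called at Smarcc1 and Actl6a. The peak at the start of Smarca4, its own gene, had a fold enrichment of 2.57 (chromosome 9, 21616387 to 21616786) and stood at percentile 12.3 of the BRG1 list. The strongest BRG1 peak in any window had a fold enrichment of 3.56 and lay in the Smarcd1 window, at chromosome 15, 99723021 to 99726252, over the neighbouring gene Gpd1. With peaks of −log10 q of at least 5 alone, BRG1 was found at 1 of the 10 genes, Smarcd1. The share of all genes was not counted at that filter, so whether this count is low cannot be said.

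**Figure D2:**
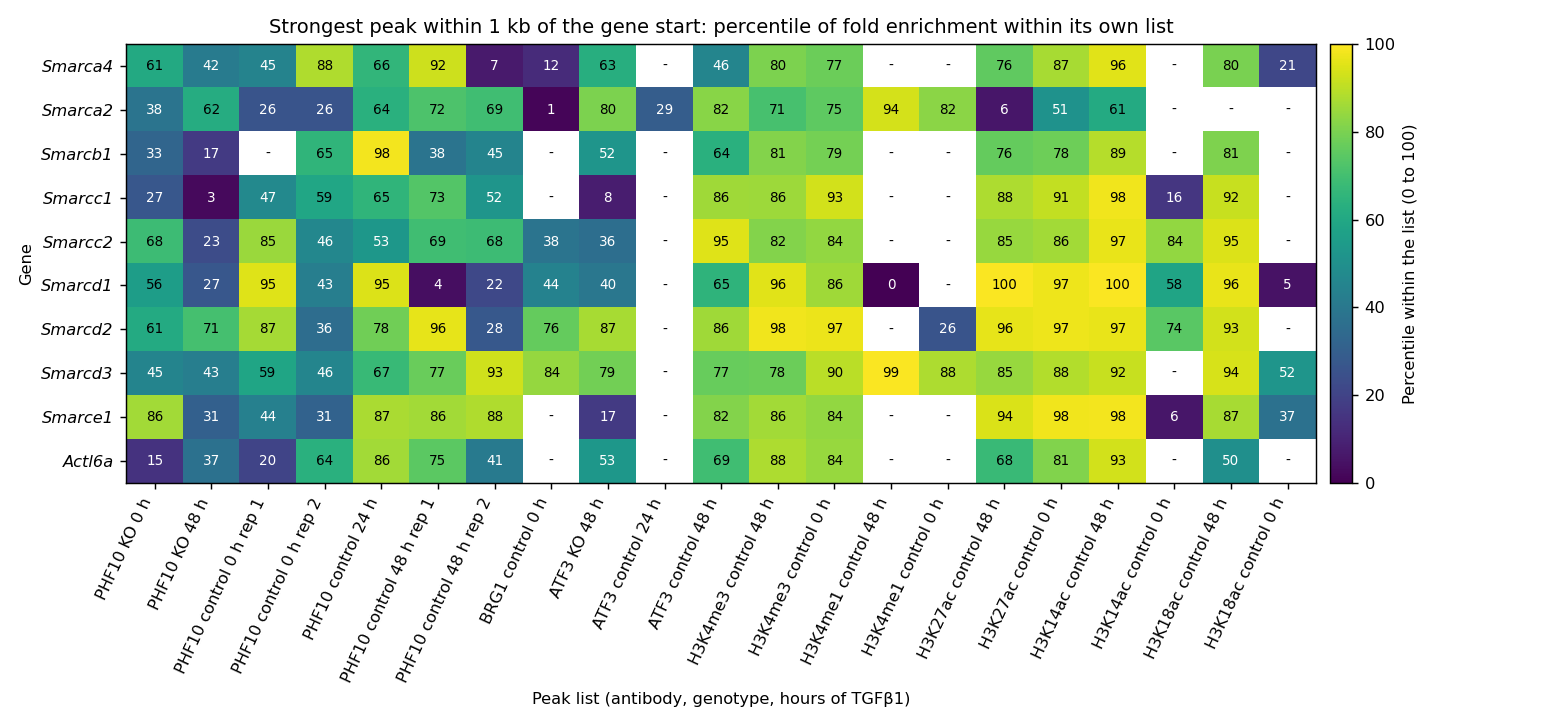
Strongest peak within 1 kb of the start, or of the 5′ end of the span, of each gene (rows) by list (columns). Values are the percentile (0 to 100) of its fold enrichment within its own list, and a dash marks no peak. The FOSL2 and FOSB lists, the ATF3 lists at 0 h and the ATF3 list of KO cells at 24 h, with no such peak at any of these genes, are left out. H3K4me3, H3K27ac and H3K14ac at 48 h are filled for all 10 genes, H3K4me1 for 3 at each time and BRG1 for 6.

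Annotation placed the marked start of Smarcd2 away from its RefSeq start. Smarcd2 encodes a SMARCD protein known for its role in granulocyte formation, and its RefSeq start lies at position 106267632 of chromosome 11. Its H3K4me3, H3K27ac, H3K14ac, PHF10 and BRG1 peaks lay instead at the 5′ end of the gene span (106272998), just short of the span of the neighbouring gene Tcam1, which begins at 106273020. At the RefSeq start itself there were H3K4me1 peaks at 0 h, with a fold enrichment of up to 3.08, and a PHF10 site in both 48 h libraries.

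The comparison with replicates asked whether PHF10 was found at more places on these genes after 48 h of TGFβ1. Every one of the 10 genes had PHF10 peaks in both control libraries at 48 h and in both at 0 h, where 74.3% and 45.5% of all genes did. Consequently 0 of 10 had PHF10 at 48 h alone, against 14.5% of all genes. Smarca4, Smarca2, Smarcb1, Smarcc1, Smarcc2, Smarcd1, Smarcd3 and Actl6a had more peaks in both 48 h libraries than in either 0 h library, which is 8 of 10 genes, against 52.1% of all genes. The 0 genes with fewer peaks compare with 0.0503% of all genes.

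Smarca4 had 1 and 1 PHF10 peaks in the control libraries at 0 h, 3 at 24 h and 5 and 14 at 48 h. The 48 h and 0 h libraries did not overlap. The 48 h minus 0 h difference was 2.25 on the log2(peaks + 1) scale, with an SD between libraries of 0.935 at 48 h and 0 at 0 h (n = 2 each; exact two-sided permutation test, p = 0.33). That p is the smallest that 2 libraries against 2 can give, so this design cannot reach 0.05. The labels do not say whether numbered replicates were grown apart, and the p covers the spread between these libraries and nothing further. A difference at least as large was seen at 8.09% of all genes. Smarca4 was singled out with its rise in PHF10 peaks already known, so neither this share nor the p is independent support.

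List length moved with this result. The 48 h lists held 43549 and 102434 peaks and the 0 h lists 11285 and 14731. Per 10000 peaks of its list, Smarca4 had 1.15 and 1.37 PHF10 peaks at 48 h, against 0.886 and 0.679 at 0 h, a log2 difference of 0.69. With every list cut to its 11285 most significant peaks, Smarca4 had 2 and 1 peaks at 48 h, against 1 and 1 at 0 h. With peaks of −log10 q of at least 5 alone, it had 1 and 1 at 48 h, against 1 and 1 at 0 h.

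The PHF10 site called in all 4 libraries lay over the Smarca4 start and overlapped the stretch printed above. Its peak had a fold enrichment of 4.37 and 2.36 in the 48 h libraries, against 8.00 and 4.91 at 0 h, and these folds are not comparable between lists. Peaks joined across the 4 libraries gave 3 sites present in both 48 h libraries and in neither 0 h library, at 19.8 kb (chromosome 9, 21635524 to 21636338), 23.0 kb (21638778 to 21639574) and 62.2 kb (21677592 to 21679212) into the gene. The sites at 19.8 and 62.2 kb were already called at 24 h, and all 3 were called in KO cells at 48 h. A further 10 sites were found in the 48 h replicate 2 list alone, the longer of the pair.

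Of these 3, the site 62.2 kb into Smarca4 overlapped the most other signals. In control cells at 48 h it carried ATF3 (fold enrichment of 8.24), H3K4me3 (5.34) and H3K14ac (4.66), and no H3K27ac or H3K4me1 peak was called. At 0 h it carried H3K4me3 (11.5), H3K27ac (4.54) and H3K4me1 (3.84). The site at 23.0 kb overlapped no peak of BRG1, of ATF3, or of H3K4me3, H3K27ac or H3K4me1 at 0 h.

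**Figure D3:**
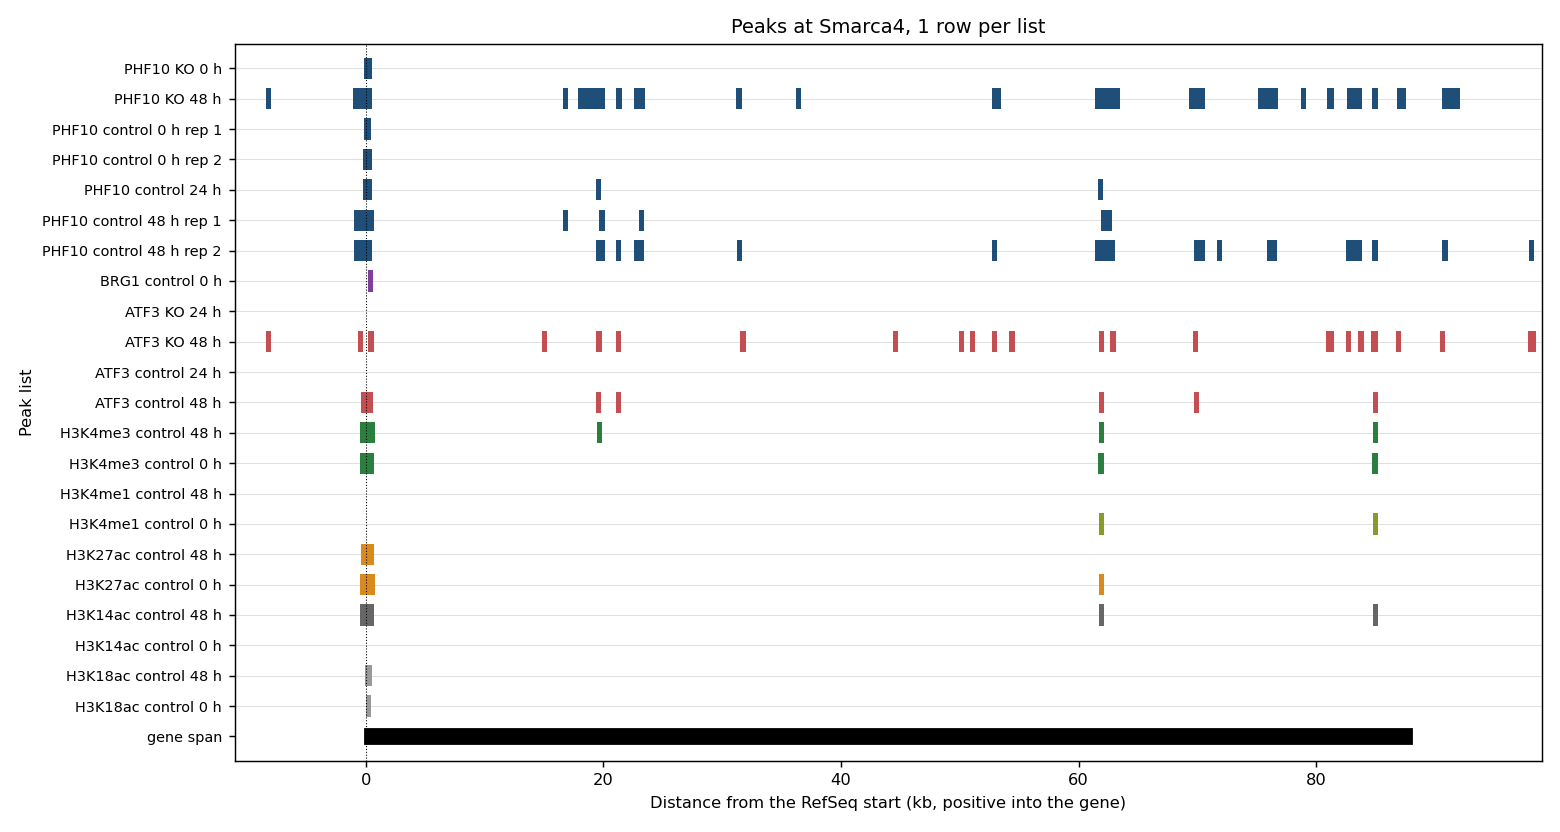
Peaks along Smarca4, with distance from the RefSeq start in kb (horizontal axis) and 1 peak list per row; the black bar is the gene span and very short peaks are widened to be visible. PHF10 has a peak at the start in all 7 rows, and peaks inside the gene from 24 h on; at 48 h there are 18 peaks in the KO row and 5 and 14 in the control rows.

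Smarca2 had 7 and 16 PHF10 peaks in control cells at 48 h, against 2 and 1 at 0 h. The 48 h and 0 h libraries did not overlap, and the difference was 2.25 on the log2(peaks + 1) scale (exact permutation p = 0.33), a size reached by 7.84% of all genes. With lists cut to equal length the counts were 2 and 6 at 48 h, against 2 and 1 at 0 h, so that the groups touched. Sites present in both 48 h libraries and in neither 0 h library lay 25.8, 35.8, 143 and 166 kb into the gene, and the last 2 had no ATF3 peak in control cells at 48 h.

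Smarcd1, which encodes one of 3 alternative SMARCD subunits, had the largest difference of the 10 genes. It had 1 and 1 PHF10 peaks at 0 h, 4 at 24 h and 9 and 11 at 48 h, and the 48 h and 0 h libraries did not overlap. The 48 h minus 0 h difference was 2.45 on the log2(peaks + 1) scale (exact permutation p = 0.33), and 5.25% of all genes had one at least as large. Cut to equal length, the lists gave 1 and 1 peaks at 48 h, against 1 and 1 at 0 h. Part of the Smarcd1 window belongs to its neighbours, and the site at 15.9 kb and the stretch around 21.7 kb lay over Gpd1, a glycerol phosphate dehydrogenase gene. The site at 21.7 kb (99721846 to 99726216) was called in all 4 libraries and crosses the window's end at 99723995. Its 0 h peaks lay outside the window and were not counted, whereas peaks at 48 h reached into it. The Smarcd1 difference is therefore partly an effect of the window's edge.

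The SMARCC scaffold genes and Smarcb1 lay lower in this order. Smarcc2 had 6 and 9 peaks at 48 h, against 1 and 2 at 0 h. Smarcb1 had 6 and 7 peaks at 48 h, against 1 and 2 at 0 h. Smarcc1, a gene of 108 kb, had 3 and 5 peaks at 48 h, against 2 and 2 at 0 h. The log2 differences were 1.77 at Smarcc2, 1.61 at Smarcb1 and 0.71 at Smarcc1, sizes reached by 18.9%, 22.8% and 60.0% of all genes. These counts include peaks over neighbouring genes. Smarcb1 sites shared by the 48 h libraries and absent at 0 h lay outside its span, at 32.2 and -5.7 kb. The latter lay over Mmp11. Smarcb1 sites called in a single 48 h library lay within the span. The Smarcb1 peak of 0 h replicate 1 lay over Derl3. The Smarcc1 site at 114 kb, called at both times, lay over Cspg5. The Smarcc2 site at 35.1 kb lay over Myl6 and Myl6b, while those at 22.9 and 28.9 kb lay within its span.

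The remaining genes were Actl6a, Smarcd3, Smarcd2 and Smarce1. Their counts include peaks over neighbouring genes too. Examples are the sites at 21.7 kb from the Actl6a start (over Mrpl47) and 14.6 kb from the Smarcd3 start (over Chpf2). Others lay 11.8 kb from the Smarcd2 start (over Ftsj3 and Psmc5) and at -7.53 kb in the Smarce1 window (over Krt222). Actl6a had 4 and 5 peaks at 48 h, against 1 and 1 at 0 h (log2 difference of 1.45, reached by 29.3% of all genes). Smarcd3, whose product is best known from heart and muscle, had 7 and 13 peaks at 48 h, against 4 and 5 at 0 h (0.95, reached by 51.1%). In Smarcd2 the libraries overlapped, with 2 and 5 peaks at 48 h, against 1 and 2 at 0 h (0.79, reached by 59.0%). In Smarce1 they overlapped too, with 1 and 4 peaks at 48 h, against 1 and 1 at 0 h (0.66, reached by 61.7%). Exact permutation p was 0.33 for Actl6a and Smarcd3, 0.67 for Smarcd2 and 1.0 for Smarce1 (n = 2 libraries each).

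Per 10000 peaks of the list, a scaling chosen after seeing the data, the genes split. Smarca4 and Smarcd1 had more in both 48 h libraries than in either 0 h library, which is 2 of 10 genes, against 19.9% of all genes. The Smarcd1 counts at 0 h leave out the site at its window's edge described above. Smarcc1, Smarcd2, Smarcd3 and Smarce1 had fewer, which is 4 of 10, against 27.5% of all genes, so that the direction turned for Smarcc1 and Smarcd3. Smarcd3 had 1.61 and 1.27 peaks per 10000 at 48 h, against 3.54 and 3.39 at 0 h. Smarcc1 had 0.689 and 0.488 at 48 h, against 1.77 and 1.36 at 0 h. The libraries overlapped on this scale at Smarca2, Smarcb1, Smarcc2 and Actl6a.

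Smarcd3 stood out at 0 h by the number of PHF10 peaks, 4 and 5 in the control libraries against 1 or 2 at every other gene. Its PHF10 sites called in all 4 control libraries lay at the RefSeq start, 3.26 kb inside it, 2.71 kb upstream of it and at the far end of the span, 21.9 kb upstream. The first 3 of these also had BRG1 and all 4 had H3K4me3, H3K27ac and H3K4me1 at 0 h. The RefSeq start of Smarcd3 lies well inside its span.

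**Figure D4:**
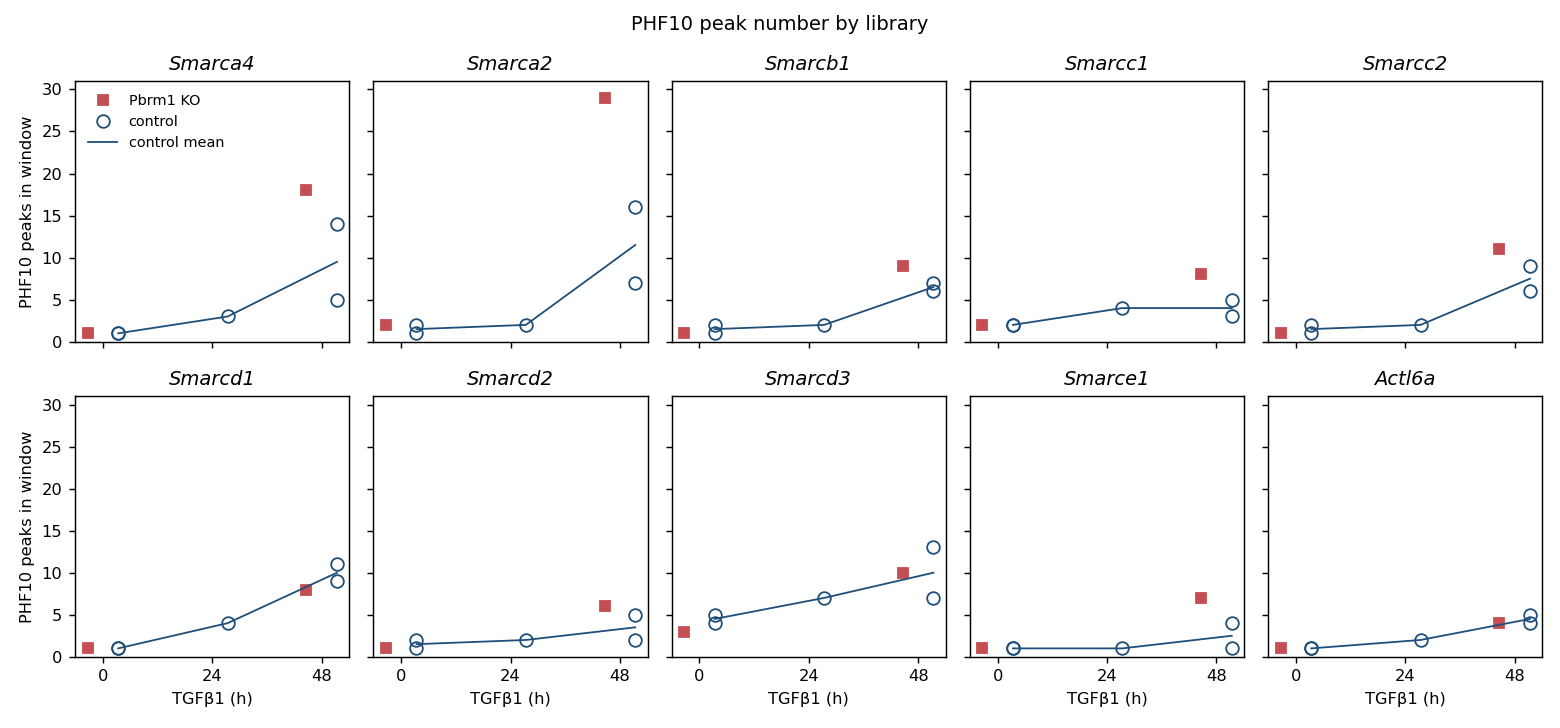
PHF10 peaks in each gene window (vertical axis) by hours of TGFβ1 (horizontal axis); filled squares are single KO libraries, open circles single control libraries, drawn left and right of their time, and the line joins control means. Control counts at 48 h lie above those at 0 h in 8 panels and overlap in Smarcd2 and Smarce1.

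Over the 10 windows together, PHF10 had 50 and 89 peaks in control cells at 48 h, against 15 and 18 at 0 h, a log2 difference of 2.02. Per 10000 peaks of the list the order was the other way, with 11.5 (95% Clopper-Pearson interval 8.52 to 15.1) and 8.69 (6.98 to 10.7) at 48 h, against 13.3 (7.44 to 21.9) and 12.2 (7.24 to 19.3) at 0 h. The intervals cover counting error alone. With lists cut to equal length the windows held 18 and 14 peaks at 48 h, against 15 and 18 at 0 h. Shares of all genes were not counted at that length. PHF10 was then found at 10 and 7 of the 10 genes at 48 h, against 10 and 10 at 0 h. The gaps in 48 h replicate 2 were Smarcb1, Smarcc1 and Smarcd2. The difference in these windows was thus no larger than the difference in list length.

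PHF10 sites present at 48 h alone and sites called at both times were set side by side by what else lay on them. Of the sites found at 48 h and not at 0 h (both libraries each), 24 lay in the windows. They overlapped H3K4me3 at 0 h in 7 cases (31.3% of 22568 in the genome), H3K27ac in 5 (15.8%), H3K4me1 in 7 (23.1%) and BRG1 in 4 (11.1%). ATF3 of control cells at 48 h lay on 9 of the 24 (48.9%), and PHF10 of control cells at 24 h on 5 (28.7%). PHF10 of KO cells at 48 h lay on 23 of the 24, against 95.6% in the genome, the exception being a site 106 kb into Smarcc1. The 15 sites called in all 4 control libraries overlapped H3K4me3 and H3K27ac peaks at 0 h in 15 cases each (100.0% and 97.6% of the 8095 such sites in the genome), PHF10 of KO cells at 0 h in 13 (96.6%) and BRG1 in 9 (58.7%). There were 0 sites in both 0 h libraries and in neither 48 h library, and 64 in the genome.

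PHF10 was also compared between genotypes, with 1 KO library at each time. At 48 h, KO cells had more PHF10 peaks than either control library at 7 of 10 genes, against 57.5% of all genes. Smarca2 had 29 peaks in KO cells, against 7 and 16 in control cells, and Smarca4 had 18 in KO cells, against 5 and 14 in control cells. Smarcb1, Smarcc1, Smarcc2, Smarcd2 and Smarce1 made up the rest of the 7, with 6 to 11 peaks in KO cells. Smarcd1 was the reverse in peak number, with 8 in KO cells, against 9 and 11 in control cells. That pattern was met by 2.14% of all genes. Its peaks nevertheless covered 17959 bases of the window in KO cells, against 6548 and 13491 in control cells. Smarcd3, with 10, and Actl6a, with 4, lay within the control range in number. Both covered more bases in KO cells, 22958 at Smarcd3 (8087 and 13769 in control cells) and 5220 at Actl6a (2473 and 4836). Covered bases were not counted for all genes.

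In KO cells at 48 h the strongest PHF10 peak in the Smarca4 window lay at -8.19 kb, upstream of the start (chromosome 9, 21607827 to 21608122), with a fold enrichment of 5.26 and percentile 99.1 of its list. In the Smarca2 window it lay 14.6 kb into the gene (chromosome 19, 26619584 to 26619946), with a fold enrichment of 4.94 and percentile 98.2. In Smarce1 it lay within the gene (chromosome 11, 99214128 to 99214441), with a fold enrichment of 4.96 and percentile 98.3.

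Summed over the windows, KO cells had 110 PHF10 peaks at 48 h, against 50 and 89 in control cells, a log2 difference of 0.72 from the control mean. It was 0.31 without control replicate 1 and 1.14 without control replicate 2. With lists cut to equal length it was 0.14. Relative to list length the order was the other way, with 6.93 peaks per 10000 (5.69 to 8.35) in KO cells, against 11.5 and 8.69 in control cells. At 0 h, KO cells had 14 PHF10 peaks over the windows, against 15 and 18 in control cells. Smarcd3 was the gene below both control libraries, with 3 peaks in KO cells, against 4 and 5 in control cells, as were 2.69% of all genes. There were 0 genes of the 10 above both control libraries at 0 h, against 3.02% of all genes.

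ATF3, a stress-induced bZIP factor that pairs with AP-1 proteins, was not called in any of the 10 windows at 0 h, with lists of 25 peaks in KO cells and 20 in control cells that reached 0.064% and 0.0594% of all genes. At 24 h, ATF3 was found at 0 of 10 genes in KO cells and at 3 of 10 in control cells, where 0.114% and 7.0% of all genes had it. Fewer ATF3 peaks in KO than in control cells were thus seen at 3 of 10 genes (7.0% of all genes) and more at 0 of 10 (0.105%). Smarca2 had 0 ATF3 peaks in KO cells, against 6 in control cells, and Smarce1 and Actl6a each had 0 in KO cells, against 1 in control cells. The KO list held 69 peaks and the control list 2004, and with both cut to 69 peaks no window held any.

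The 6 ATF3 peaks of Smarca2 at 24 h were spread along the gene. They lay 1.18 kb (chromosome 19, 26606151 to 26606519), 14.7 kb (26619698 to 26619928, within the PHF10 peak of KO cells at 48 h given above) and 73.6 kb (26678618 to 26678830) from the start. The other 3 lay 93.5 kb (26698536 to 26698752), 116 kb (26720700 to 26720913) and 139 kb (26744260 to 26744507) from it. Their fold enrichments ran from 2.89 to 4.78, and the strongest, at 73.6 kb, ranked 489 of 2004. Sfi1 alone had more ATF3 peaks in its window at that time, with 14, so that 0.00914% of all genes had at least as many as Smarca2. Of the 1199 genes at least as long as Smarca2 (173 kb), 21.0% had any ATF3 peak, and 1, Smarca2 itself, had 6 or more.

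Few of these early ATF3 peaks were called again in control cells at 48 h. Of the 8 peaks of control cells at 24 h in the windows, 1 overlapped an ATF3 peak of control cells at 48 h, against 27.6% of all 2004, and it was the one nearest the Smarca2 start, which was also the 1 start peak of the 10 genes (1.06% of genes with a start). In KO cells at 48 h, ATF3 peaks overlapped 7 of the 8, against 54.7% of all, while in KO cells at 24 h they overlapped 0 (0.898%). PHF10 of KO cells at 48 h overlapped 7 of the 8 (76.3% of all), and PHF10 of control cells at 48 h overlapped 2 in replicate 1 (27.5%) and 6 in replicate 2 (56.5%). None of the 8 reached a −log10 q of 5, and BRG1 at 0 h overlapped 0 of them (9.28% of all).

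**Figure D5:**
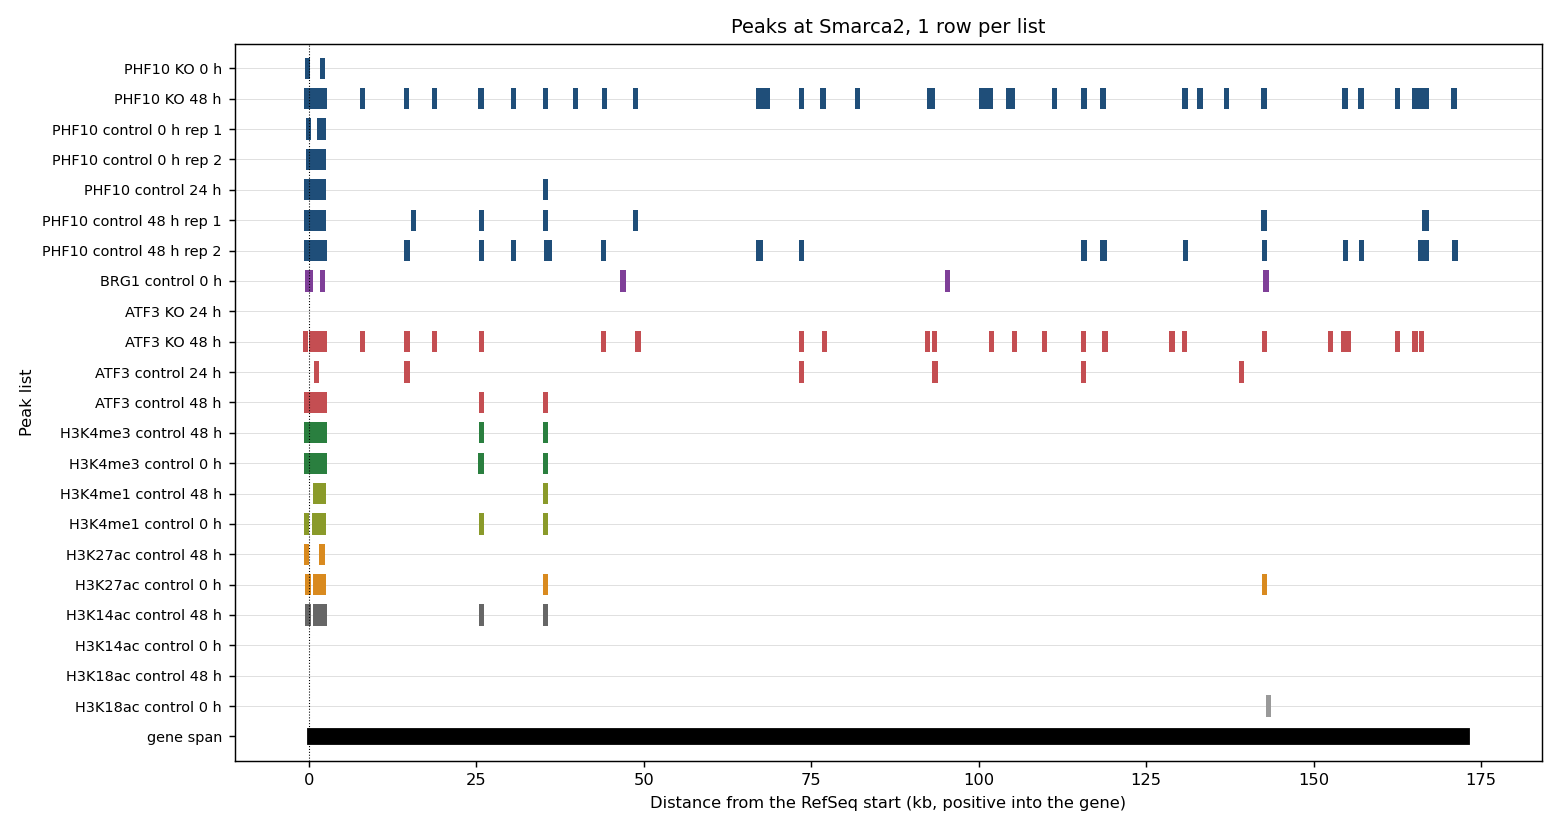
Peaks along Smarca2, with distance from the RefSeq start in kb (horizontal axis) and 1 peak list per row; the black bar is the gene span and very short peaks are widened to be visible. The ATF3 rows show 0 peaks in KO and 6 in control cells at 24 h, and 26 in KO and 3 in control cells at 48 h.

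At 48 h ATF3 was present at 10 of 10 genes in KO cells and at 10 of 10 in control cells, where 84.6% and 76.4% of all genes had it. KO cells had more ATF3 peaks at 10 of 10 genes, against 72.2% of all genes, and fewer at 0 (4.68%), in lists of 144513 peaks in KO and 45716 in control cells. Smarca2 had 26 peaks in KO cells and 3 in control cells, Smarca4 had 22 in KO cells and 6 in control cells, and Smarcd3 had 21 in KO cells and 8 in control cells. Actl6a had the smallest gap, with 4 in KO cells and 3 in control cells. Per 10000 peaks of the list, the windows held 8.93 (7.45 to 10.6) in KO cells and 8.75 (6.25 to 11.9) in control cells, and these intervals overlapped.

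ATF3 lay at the starts of all 10 genes in KO cells and in control cells at 48 h, against 64.5% and 61.5% of genes with a start. In control cells, the start of Smarcc2 held the highest-ranked of these peaks, with a fold enrichment of 12.1 (chromosome 10, 128458443 to 128459909; percentile 95.2 of its list). The strongest ATF3 peak in any window in that list lay 3.21 kb into Smarcd3, with a fold enrichment of 15.0 (chromosome 5, 24598412 to 24599163) and rank 379 of 45716. It overlapped a PHF10 site of all 4 control libraries. In KO cells at 48 h the strongest ATF3 peak in any window was 91.8 kb into Smarcc1, with a fold enrichment of 7.04 and rank 611 of 144513.

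The AP-1 proteins FOSL2 and FOSB were called at few of these genes or none. FOSL2 was found at 2 of 10 genes in KO cells and at 0 of 10 in control cells at 48 h, where 17.2% and 9.22% of all genes had it and 8.64% had it in KO cells alone. The peaks lay 30.7 kb into Smarcc1 (fold enrichment of 6.45; chromosome 9, 110162557 to 110162959) and 13.1 kb from the start of Smarcd1 (5.53; chromosome 15, 99715263 to 99715581), just past the end of the Smarcd1 span. The lists held 7381 peaks in KO cells and 3444 in control cells, and with the KO list cut to the control length 0 of the 10 genes were left. FOSB had 0 peaks in every window at 48 h, in lists of 31 peaks in KO cells (0.0959% of all genes) and 188 in control cells (0.717%). At 0 h neither factor had a peak in any window, in lists of at most 7 peaks (FOSL2: 0.00457% of all genes in KO and 0.00914% in control cells; FOSB: 0.00914% in each). The AP-1 motif upstream of Smarcb1, shown above in capitals, had no FOSL2 or FOSB peak over it, whereas the ATF3 start peak of KO cells at 48 h (fold enrichment of 3.52) reached over it, as did the PHF10 start peaks of KO cells and of both control libraries at 48 h.

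Over the whole windows, the number of histone mark peaks differed between 48 and 0 h in control cells, with 1 library a time. H3K4me1, a mark of enhancers and promoter flanks, was found at 5 of 10 genes at 48 h and 7 of 10 at 0 h (43.3% and 50.0% of all genes). It had fewer peaks at 48 h at 6 of 10 genes, against 29.1% of all genes, and more at 0 of 10 (8.17%). Smarca4 and Smarcd2 each had 0 H3K4me1 peaks at 48 h and 2 at 0 h, and 12.1% of all genes had H3K4me1 at 0 h alone. Smarca2 had 2 at 48 h and 4 at 0 h, and Smarcc2, Smarce1 and Actl6a had none at either time. The H3K4me1 lists held 12863 peaks at 48 h and 20179 at 0 h.

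H3K27ac, which also marks active enhancers, had fewer peaks at 48 h at 5 of 10 genes, against 26.7% of all genes, and more at 0 of 10 (5.09%). Smarcd1 had 2 at 48 h and 5 at 0 h, and Smarca2 had 2 at 48 h and 4 at 0 h. Smarca4, Smarcc2 and Actl6a each had 1 peak fewer at 48 h. At Actl6a the peak of 0 h without a match at 48 h lay 28.5 kb from the start, over the start of the neighbouring gene Mrpl47. The H3K27ac list held 15962 peaks at 48 h and 20507 at 0 h.

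H3K14ac and H3K18ac had more peaks in the windows at 48 h, in longer lists. H3K14ac was found at 10 of 10 genes at 48 h and 5 of 10 at 0 h (74.4% and 18% of all genes), and H3K18ac at 9 of 10 and 6 of 10 (45.1% and 24.3%). H3K14ac had more peaks at 48 h at 8 of 10 genes, against 68.5% of all genes, and was present at 48 h alone at 5 of 10 (Smarca4, Smarca2, Smarcb1, Smarcd3 and Actl6a), against 56.4%. Smarcd1 had 7 H3K14ac peaks at 48 h and 1 at 0 h. Per 10000 peaks of the list the windows together had fewer H3K14ac peaks at 48 h, 9.36 (6.44 to 13.1), than at 0 h, 17.4 (6.38 to 37.8), and the intervals overlapped. For H3K18ac the values were 7.35 (4.11 to 12.1) at 48 h and 6.05 (2.61 to 11.9) at 0 h. H3K18ac had more peaks at 48 h at 5 of 10 genes, against 31.9% of all genes, and fewer at 1 (8.31%), which was Smarca2. It was present at 48 h alone at 4 of 10 (Smarcb1, Smarcc1, Smarcd2 and Actl6a), against 24.6%. Smarca2 had 0 H3K18ac peaks at 48 h and 1 at 0 h, 143 kb into the gene, and 3.87% of all genes had H3K18ac at 0 h alone.

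H3K4me3 varied least in number. Its counts were equal at 48 and 0 h at 8 of the 10 genes. Smarca4 had 4 peaks at 48 h and 3 at 0 h, with the added peak 19.6 kb into the gene, over the PHF10 site at 19.8 kb, while 7.47% of all genes had more at 48 h. Smarcc1 had 3 at 48 h and 4 at 0 h, while 13.7% had fewer.

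The same counts were made over other subunit genes of the complexes. Of 19 further SWI/SNF subunit genes, 19 had PHF10 in both control libraries at 48 h and 19 in both at 0 h, and 15 had more PHF10 peaks in both 48 h libraries than in either 0 h library. ATF3 of control cells at 24 h was found at 4 of the 19 and was called in KO cells at 0 of them. FOSL2 at 48 h was found at 5 in KO cells and at 3 in control cells.

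Across all 32 lists, the peak numbers of the 10 genes moved together, as a description with list length shared by every gene. By Pearson correlation of log2(peaks + 1), the genes elsewhere most like Smarca4 were Snx8 (r = 0.9901), Csdc2 (0.9881) and Tmco4 (0.988). The most like among the 10 was Smarcd2 (0.9386), which ranked 1049 of all genes, and the least like was Smarcc1 (0.8559), which ranked 9728. Smarca2, the alternative ATPase, had an r of 0.8764 with Smarca4.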

How the data were processed

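The 32 deposited ChIP-seq peak lists come 1 per library; 15 inputs are not analysed here. MACS3 3.0.0a7, deepTools 3.5.1, fastp 0.19.5, Partek 11.0.24.0325, Bowtie2 2.3.3 and mm10 are named in the submitters' processing notes, without settings. Per the labels' protocols, PHF10, BRG1 and ATF3 cells were crosslinked with DSG and formaldehyde, the others with formaldehyde alone. The deposited pileup signal was not compared. The deposited −log10 p and −log10 q values served to filter and to cut lists, and the deposited fold ratio to rank peaks within a list. The 8 PHF10 and BRG1 lists lack summits and reach weaker q than the other lists. Read totals are not in the lists, so depth is unknown.

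Autosomal, X and Y peaks were assigned to gene spans of RefSeq (GRCm38.p6) with 10 kb to either side, at an overlap of 1 bp. Starts and upstream sequence came from the RefSeq promoter table; Smarce1 had no entry, and either end of its span stood for the start. PHF10 counts at 48 and 0 h were compared on the log2(peaks + 1) scale by exact permutation, two-sided, other groups having 1 library. Peaks in the windows per 10000 of a list carry 95% Clopper-Pearson intervals, which treat peaks as independent draws. Shares of genes carry none. Python 3.11.15, numpy 2.4.6, pandas 2.3.3, scipy 1.17.1 and matplotlib 3.10.9 were used, and overlap counting was tested on simulated data. The genes, lists and alternatives were chosen with earlier results of these data known. Text names all 10 genes, the strongest factor peaks in their windows, genes inside the windows and the 3 genes most like Smarca4; Sfi1 was named after its value was seen. Alternatives were peaks of −log10 q of at least 5, flanks of 2 and 50 kb, equal list lengths, peaks joined within 1 kb, a pseudocount of 0.5, a replicate block and each PHF10 control library left out; peaks per 10000 of the list was added after seeing the data.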

Additional observations from a re-analysis of the deposited data

Results flagged for a closer look

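ATF3 differed between genotypes in opposite directions at the 24 h and 48 h time points at 3 genes. At Smarca2, the number of ATF3 peaks in KO cells minus that in control cells was -6 at 24 h (0 in KO and 6 in control cells) and 23 at 48 h (26 in KO and 3 in control cells). At Smarce1 it was -1 at 24 h and 4 at 48 h, and at Actl6a -1 at 24 h and 1 at 48 h. Each arm had 1 library, so the difference between the time points was not tested. The lists held 69 peaks in KO and 2004 in control cells at 24 h, and 144513 in KO and 45716 in control cells at 48 h, so list length has the same pattern, and its part in the result was not tested.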

How the results depend on the processing

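The log2 difference in PHF10 peaks over the 10 windows, control 48 h against 0 h, was 2.02, and it became 0.93 with −log10 q of at least 5, -0.05 with lists cut to equal length and -0.35 per 10000 peaks of the list. Leaving out each replicate gave 1.61 to 2.44, and the replicate block left it at 2.02. At Smarca4 the difference of 2.25 became 0.00 with −log10 q of at least 5, 0.29 at equal length and 0.69 per 10000, and ran from 1.58 to 2.91 with each replicate left out. With the replicate block it stayed at 2.25, with an exact sign-flip p of 0.5, the smallest 2 pairs can give. Same-numbered libraries did not deviate together (correlation of -0.039 over 21887 genes). With 2 libraries at each time, this cannot show whether they shared a culture or a day. PHF10 in KO against control cells at 48 h (0.72) became 0.14 with lists cut to equal length and -0.53 per 10000, and ran from 0.31 to 1.14 with each control replicate left out. The number of genes with PHF10 at 48 h alone became 1 (Actl6a) with −log10 q of at least 5, against 0.

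Among counts of genes, ATF3 of control cells at 24 h (3 genes) became 0 with −log10 q of at least 5 and 0 at equal length. FOSL2 of KO cells at 48 h (2 genes) became 4 with 50 kb flanks, with 2 in control cells, and 0 at equal length. BRG1 (8 genes) became 1 with −log10 q of at least 5. H3K4me1 at 48 h (5 genes) became 3 with 2 kb flanks and 8 with 50 kb flanks. Why these values moved was not tested, beyond fewer peaks or wider windows by construction. Shares of all genes were not counted under these settings. The other recomputed values, 81 with the equal-length value of 0.14 among them, kept their direction or their count to within 1.5 times, or moved by less than the spread between libraries. For Smarca4 the direction alone was checked, so its values of 0.29 at equal length and 0.69 per 10000 are among the 81 though far smaller than 2.25. Depth is unknown, so a peak missing from a short list is not shown to be absent from the cells.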
